A study of Oryctolagus cuniculus with 8 samples.

Results

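The miRNAs miR-148a, miR-148b and miR-152 were examined in extracellular vesicles of the oviduct and the uterus of rabbits. Such vesicles are membrane-bound particles shed by cells, and they carry RNA and protein in body fluids. The rows were taken by name alone, with both arms of each precursor, which gave 6 of the 579 mature names in the table. These are the 3p and 5p forms of all 3, each on a single row, and the most read of them are listed there as ocu-miR-148a-3p and ocu-miR-148b-3p. Below, names leave out the prefix ocu. All 8 libraries came from wild-type California x New Zealand white does that had given birth 4 to 6 times. Every doe received 25 IU of eCG, a gonadotropin, and after 48 h 20 µg of a GnRH analogue that induces ovulation, so both groups share this treatment. Fluid was flushed from the tract some 14 to 15 h after the second injection. The flush volume was 1 mL in the oviductal and 2.2 mL in the uterine group, so volume and fluid cannot be told apart. Both groups share spins at 300 g for 7 min and 10000 g for 30 min and a 0.22 µm filter. The oviductal group has 5 libraries, each a pool of 3 animals, and the uterine group has 3 libraries, each a pool of 5 animals. Pool size and fluid thus cannot be told apart either. The uterine replicates carry the numbers 12, 3 and 4 in their titles, and the first of these has the number 1 in its library name. Whether the number 12 stands for a joined pool is not stated.

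A miRNA guides the Argonaute protein to messenger RNAs that pair with its seed, a short stretch near its 5′ end, and lowers their translation and stability. The 3p forms of miR-148a, miR-148b and miR-152 share a seed and are taken as a family, while the 5p forms come from the other side of each hairpin and are mostly degraded after processing. The family is known for targeting the mRNA of the maintenance DNA methyltransferase DNMT1, and miR-148a is known as a dominant miRNA of milk vesicles and an abundant one of liver. In the RefSeq gene table of the assembly mOryCun1.1, MIR148B lies within the span of COPZ1 and MIR152 within the span of COPZ2. Both host genes encode zeta subunits of the COPI coat that carries vesicles back from the Golgi. MIR148A lies within no annotated gene. A gene of the NFE2 family of transcription factors is the nearest protein-coding gene on one side of each locus, NFE2L3 for MIR148A, NFE2 for MIR148B (outside its host gene) and NFE2L1 for MIR152 (likewise). The files use another build, OryCun2.0, so no coordinates are given.

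With each name counted once, miRNA reads per library numbered 42684 to 569087 for oviductal and 232546 to 479865 for uterine vesicles. The shallowest were oviductal replicates 3 and 2, with 42684 and 47598 reads. Levels are given in CPM, reads per 1000000 miRNA reads of the library, or as a percent of those reads, and intervals are 95% Wilson intervals that cover counting error only. The pools have 30 places for 21 does, so some pools share animals, and p-values measure only the spread between pools. Which pools share animals is not in the labels, and the tests treat all pools as independent. Marker miRNAs of other cells were read in the same libraries. The epithelial list (miR-200 family, miR-205, miR-375) took 5.41% to 6.18% of oviductal and 0.722% to 3.01% of uterine reads, with 3 of its 7 names not in the table. The muscle list (7 names, 1 of them without a read) took 0.381% to 0.471% of oviductal and 0.560% to 4.69% of uterine reads. The erythrocyte list (4 names) took 0.0922% to 0.288% and 0.123% to 0.768%, and the leukocyte list (6 names, miR-142-5p at 0 in all libraries) took 0.100% to 0.235% and 0.0786% to 0.349%. The liver list took 0.00615% to 0.0588% and 0.0299% to 0.306%, all of it miR-122-5p, since miR-122-3p had no read. In bulk vesicle RNA, fewer vesicles from a cell type and less miRNA per vesicle cannot be told apart.

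miR-148a-3p, the guide arm of its hairpin, was the most abundant miRNA in 8 of 8 libraries. In oviductal replicates 1 to 5 it took 37.0%, 32.6%, 28.7%, 27.1% and 28.6% of reads. In uterine replicates 12, 3 and 4 it took 47.6%, 54.4% and 29.2%. The uterine replicates 12 and 3 stood above every oviductal library, while uterine replicate 4 lay inside the oviductal range, so the groups overlapped. Counting error was small beside these gaps. The Wilson interval ran from 47.4% to 47.8% in uterine replicate 12 and from 28.3% to 29.2% in the shallowest library, oviductal replicate 3. The coefficient of variation between pools was 13.1% in the oviductal and 29.8% in the uterine group, where counting alone would give 0.580% and 0.268%.

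The lead of miR-148a-3p over the next miRNA differed between libraries. In the oviductal libraries the second most abundant was miR-99a-5p in each case, at 7.09% to 9.57% of reads, and miR-148a-3p had 3.11 to 4.60 times its reads. In uterine replicate 12 the second was miR-10a-5p, a miRNA of the HOX clusters, at 5.08%, and miR-148a-3p had 9.37 times its reads. In uterine replicate 3 it was let-7i-5p at 4.19%, and the ratio was 13.0. In uterine replicate 4 it was again miR-99a-5p, at 8.28%, and the ratio of 3.53 fell inside the oviductal range.

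**Figure D1:**
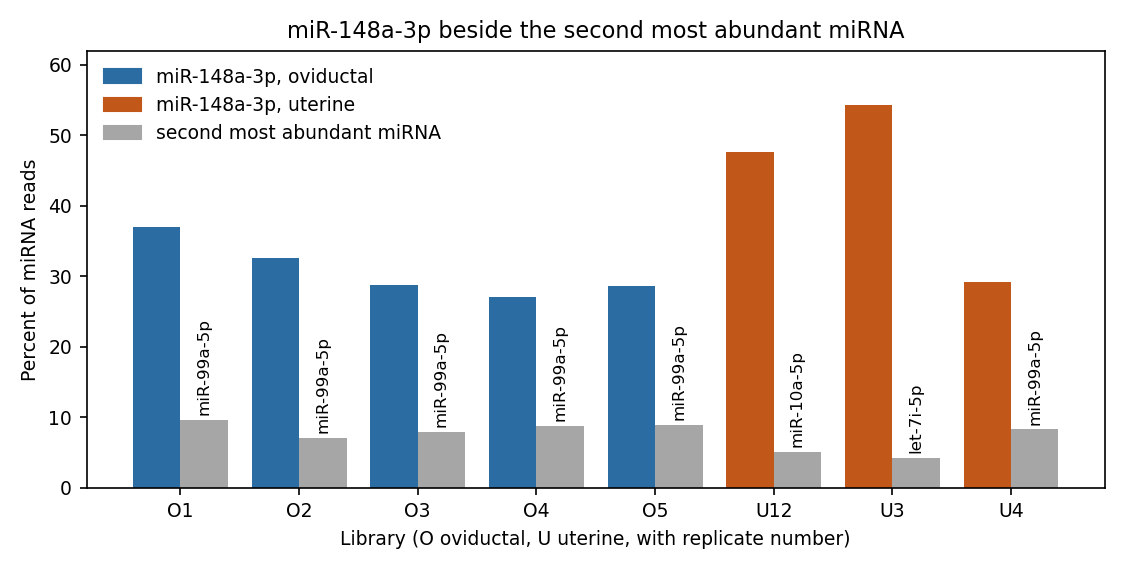
Percent of miRNA reads (vertical axis, from 0) taken by miR-148a-3p (coloured bars, blue oviductal and orange uterine) and by the second most abundant miRNA (grey bars, named above each) in each of the 8 libraries. miR-148a-3p leads everywhere, with 47.6% and 54.4% in uterine replicates 12 and 3 against 27.1% to 37.0% in the oviductal libraries and 29.2% in uterine replicate 4.

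The share of miR-148a-3p averaged 43.7% in uterine and 30.8% in oviductal libraries, 12.9 percentage points more in the uterine group. An exact two-sided permutation test over the libraries gave p = 0.0536, which did not pass the threshold of 0.05, where the smallest p the design allows is 0.0179. Single pools moved this difference. It was 7.60 points without uterine replicate 3 and 20.2 points without uterine replicate 4. The last of these had an exact permutation p of 0.0476, the smallest that 5 libraries against 2 can give. The library where miR-148a-3p was lowest in the uterine group, replicate 4, had the highest share of the muscle list, 4.69%, against 2.54% in replicate 12 and 0.560% in replicate 3. The erythrocyte and leukocyte lists were also highest in replicate 4, at 0.768% and 0.349%, against 0.362% and 0.116% in replicate 12 and 0.123% and 0.0786% in replicate 3. The epithelial list took 0.722%, 3.01% and 1.96% in replicates 12, 3 and 4. The liver list was highest in replicate 12, at 0.306%, against 0.0579% and 0.0299% in replicates 3 and 4. The part of these other sources in the result was not tested.

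miR-148b-3p, the guide arm from the COPZ1 locus, was a mid-abundance miRNA that ranked between 33 and 53 among all names of its library. Its level in oviductal replicates 1 to 5 was 1579, 2185, 2530, 1607 and 1587 CPM. In uterine replicates 12, 3 and 4 it was 1565, 2017 and 1301 CPM. The oviductal libraries 2 and 3, which are also the shallowest, had the highest levels of all 8, on 104 and 108 reads, and the remaining oviductal libraries lay close together. The groups overlapped, at 1897 ± 438 CPM in oviductal (SD, n = 5) and 1628 ± 362 CPM in uterine vesicles (SD, n = 3). The 3p forms are similar in sequence. Whether reads of miR-148a-3p with sequencing errors were counted for the other forms was not tested.

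miR-152-3p, the guide arm from the COPZ2 locus, was rare in all libraries. It had 17, 4, 8, 9 and 20 reads in oviductal replicates 1 to 5 and 19, 20 and 31 reads in uterine replicates 12, 3 and 4. These reads stood for 38.5, 84.0, 187, 35.4 and 35.1 CPM in the former and for 81.7, 41.7 and 106 CPM in the latter. The highest level, in oviductal replicate 3, rests on 8 reads and its Wilson interval ran from 95.0 to 370 CPM. Its 3-read floor was 70.3 CPM, above the values of 4 other libraries. The group means were 76.1 ± 65.6 CPM (SD, n = 5) and 76.6 ± 32.7 CPM (SD, n = 3) and the groups overlapped.

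The 5p arms were scarce. miR-148a-5p, the passenger arm of the dominant form, had 51, 5, 2, 1 and 29 reads in oviductal replicates 1 to 5 and 0, 41 and 10 in uterine replicates 12, 3 and 4. It was thus without a read in uterine replicate 12, although that library held 110702 reads of the 3p arm from the same hairpin. The group means were 64.5 ± 45.9 CPM in oviductal (SD, n = 5) and 39.9 ± 43.0 CPM in uterine vesicles (SD, n = 3). miR-148b-5p had 15 reads in all, 13 of them in oviductal replicate 1, and 1 each in oviductal replicate 4 and uterine replicate 3. miR-152-5p had 1 read in the whole series, in oviductal replicate 4.

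Over all libraries miR-148a-3p made up 99.5% of the reads of the 6 forms, miR-148b-3p 0.445%, miR-148a-5p 0.0157%, miR-152-3p 0.0145%, miR-148b-5p 0.00170% and miR-152-5p 0.000113%. The first and second places in this order were the same in each of the 8 libraries. The neighbours miR-152-3p and miR-148a-5p could not be ordered, since the first had more reads in 4 libraries and fewer in the other 4. The share of the whole family was therefore nearly that of miR-148a-3p, at 31.0% ± 4.03 in oviductal (SD, n = 5) and 43.9% ± 13.1 in uterine vesicles (SD, n = 3). Levels of different miRNAs were not corrected for how well each ligates to the sequencing adaptors, so the order is one of reads.

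**Figure D2:**
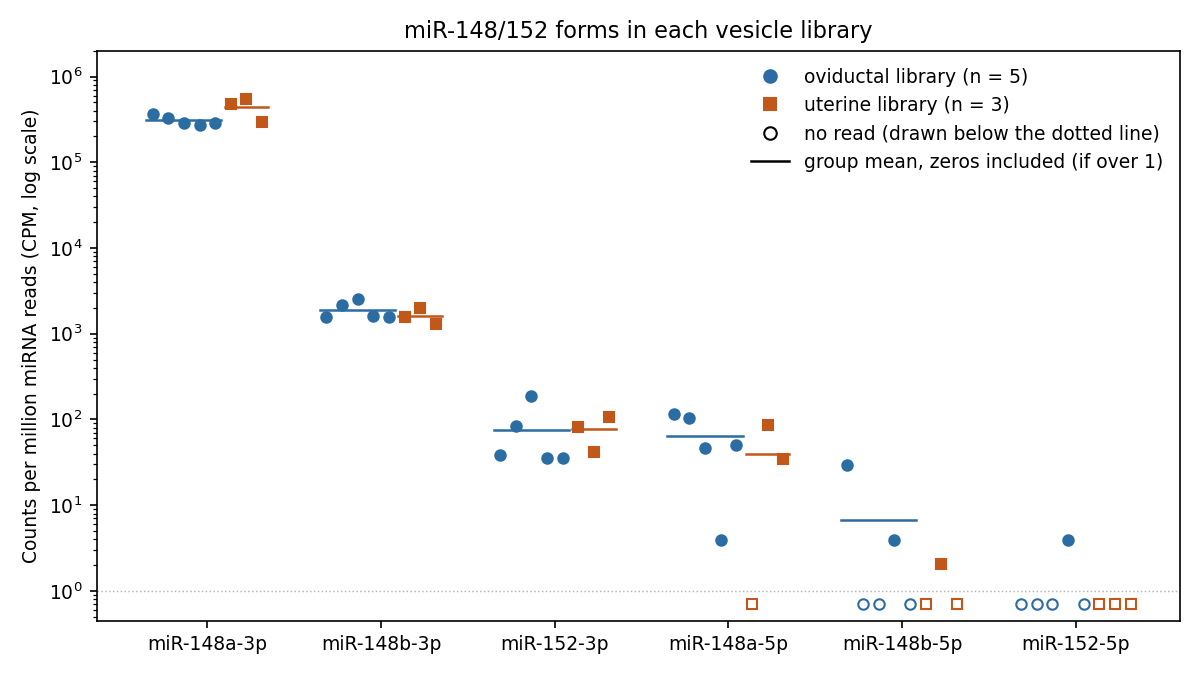
CPM (log axis) of the 6 forms of miR-148a, miR-148b and miR-152 in each library, with blue circles for the 5 oviductal and orange squares for the 3 uterine libraries, lines for group means above 1 CPM, and open symbols for libraries with no read. The 3p forms fall in 3 tiers, miR-148a-3p between 270659 and 543584, miR-148b-3p between 1301 and 2530 and miR-152-3p between 35.1 and 187, and the oviductal and uterine symbols overlap in each.

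The comparison between the 2 fluids asked which miRNAs differ between oviductal and uterine vesicles. It was fitted on the counts of all miRNAs with edgeR's quasi-likelihood test, and log2 fold changes (uterine over oviductal) are on the TMM scale, which corrects library totals for composition. Of the 178 tested miRNAs, 3 passed an adjusted p of 0.05, or 1.69%, all higher in uterine vesicles. Of the 6 forms, 4 passed the filter on low counts and were tested, and none of these 4 passed the threshold. miR-148b-5p and miR-152-5p were not tested. The groups did not overlap on the scaled values in 13.5% of tested miRNAs, and in none of the 4 forms.

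On that scale miR-148a-3p was at 403809, 255420, 223067, 276093 and 258627 CPM in oviductal replicates 1 to 5 and at 635451, 816577 and 241821 CPM in uterine replicates 12, 3 and 4. The uterine replicates 12 and 3 stood above all oviductal libraries and uterine replicate 4 below 4 of the 5. The log2 fold change was 0.99 ± 0.39 (SE), with a 95% interval of 0.17 to 1.82, an unadjusted p of 0.0204 and an edgeR adjusted p of 0.182. An unadjusted p under 0.05 was found for 28 of the 178 tested miRNAs, or 15.7%. The median over all tested miRNAs was a log2 fold change of -0.02. For miR-148a-3p the value rose to 1.40 and passed when uterine replicate 4 was left out (edgeR adjusted p 0.0108), and it was 0.33 when uterine replicate 3 was left out (edgeR adjusted p 0.642). With library totals as the only scaling it was 0.51, and the median of all tested miRNAs then stood at -0.31.

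A miRNA of this abundance also bears on the scaling of the rest. The TMM factors of the uterine libraries 12, 3 and 4 were 0.751, 0.666 and 1.21, and those of the oviductal libraries lay between 0.918 and 1.29. When miR-148a-3p was left out of the totals and factors, the uterine factors were 0.995, 0.943 and 1.11 and the oviductal ones 0.891 to 1.15. The log2 fold change of miR-148a-3p against these factors was 0.89 ± 0.38 (SE; edgeR adjusted p 0.237), and 4 miRNAs passed the threshold in place of 3.

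**Figure D3:**
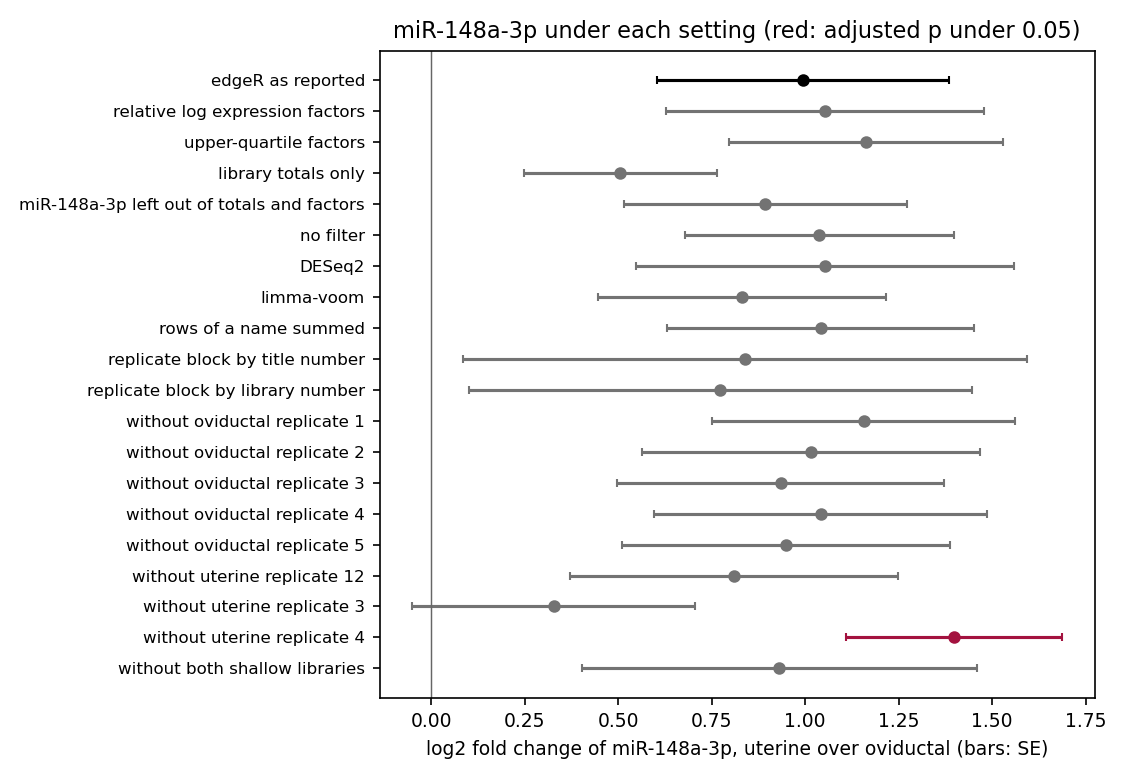
log2 fold change of miR-148a-3p, uterine over oviductal (horizontal axis, bars are SE), under the reported edgeR fit (black, top) and each alternative setting (grey, or red where the adjusted p is under 0.05). All points lie to the right of 0, between 0.33 (uterine replicate 3 left out) and 1.40 (uterine replicate 4 left out), which is the only red one.

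miR-148b-3p was at 1723, 1711, 1964, 1639 and 1435 CPM on the TMM scale in oviductal replicates 1 to 5 and at 2089, 3030 and 1077 CPM in uterine replicates 12, 3 and 4. The uterine libraries thus lay on both sides of the oviductal range. The log2 fold change was 0.29 ± 0.49 (SE), with a 95% interval of -0.73 to 1.31 and an edgeR adjusted p of 0.842. Its sign turned with library totals only, to -0.22, and without uterine replicate 3, to -0.37. Among the reads other than miR-148a-3p, miR-148b-3p stood at 2745 ± 617 per 1000000 in oviductal (SD, n = 5) and 3082 ± 1294 per 1000000 in uterine vesicles (SD, n = 3).

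miR-152-3p had a log2 fold change of 0.49 ± 1.17 (SE; 95% interval -1.96 to 2.95; edgeR adjusted p 0.906), and the value was 1.02 when oviductal replicate 3 was dropped, 0.21 when uterine replicate 12 was, and 1.31 with neither of the shallowest libraries. miR-148a-5p was at -0.16 ± 1.43 (SE; 95% interval -3.16 to 2.84; edgeR adjusted p 0.978). At these read numbers a change of several fold in either direction lies within the intervals of both forms. The value of miR-148a-5p turned positive when oviductal replicate 1 (0.38), uterine replicate 12 (0.26) or uterine replicate 4 (0.11) was dropped, and was -2.13 with uterine replicate 3 dropped.

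**Figure D4:**
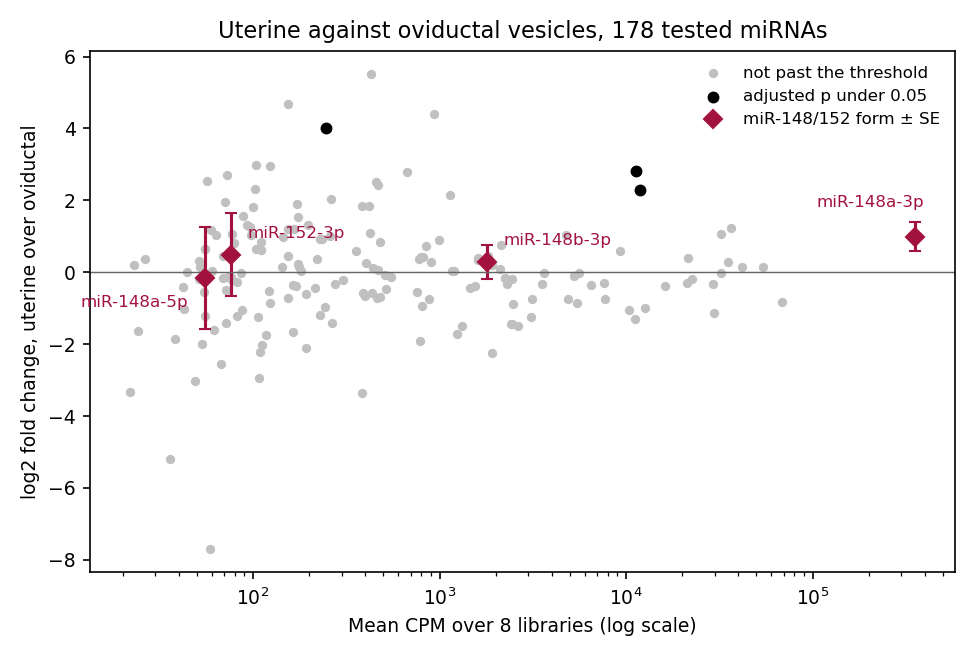
log2 fold change (uterine over oviductal) of the 178 tested miRNAs against their mean CPM over 8 libraries (log axis), with the 3 past the threshold in black and the 4 tested forms of miR-148a, miR-148b and miR-152 as red diamonds with SE bars. miR-148a-3p is the rightmost point at 0.99, and the SE bars widen towards the rare forms, to 1.17 for miR-152-3p and 1.43 for miR-148a-5p.

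The spread between pools differed among the forms. On the log2 TMM scale miR-148b-3p had an SD of 0.16 in the oviductal group, and 1 of the 131 tested miRNAs with at least 100 CPM varied less. For miR-148a-3p the SD was 0.32, and 11 of the 131 varied less. In the uterine group the SDs were 0.75 and 0.93, and 43 and 55 of the 131 varied less. The median SD of these 131 was 0.64 in the oviductal and 1.13 in the uterine group. Over all 178 tested miRNAs, which include rarer ones, it was 0.81 and 1.32. This order depends on the scaling. With library totals only, an alternative added after seeing the data, the oviductal SD was 0.18 for miR-148a-3p and 0.32 for miR-148b-3p, and 4 and 19 of the 131 varied less. The uterine SDs were then 0.47 and 0.31, with 15 and 10 of the 131 varying less. On unscaled CPM the coefficient of variation of miR-148b-3p was 23.1% in the oviductal and 22.3% in the uterine group. The TMM factors that lower its level in oviductal replicates 2 and 3 were 1.28 and 1.29.

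Ratios within a library need no scaling between libraries. The reads of miR-148b-3p came to 0.427%, 0.670%, 0.880%, 0.594% and 0.555% of those of miR-148a-3p in oviductal replicates 1 to 5. In uterine replicates 12, 3 and 4 they came to 0.329%, 0.371% and 0.445%. Of the uterine libraries, replicates 12 and 3 were below all oviductal ones, while replicate 4 stood just above oviductal replicate 1. The mean was 0.382% ± 0.0591 in uterine (SD, n = 3) and 0.625% ± 0.168 in oviductal vesicles (SD, n = 5). The difference of the log2 ratio was -0.68, where exact permutation gave a two-sided p of 0.0714, or 0.143 adjusted over the 2 ratios tested. It was -0.46 without both of the shallowest libraries, where the ratio was highest (adjusted exact permutation p 0.400). The fewer splits of that set cannot give an exact p under 0.05 at any values, so this p cannot be set against that of all libraries.

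The reads of miR-152-3p came to 0.0104% to 0.0652% of those of miR-148a-3p across oviductal and 0.00767% to 0.0364% across uterine libraries. The highest over the lowest library was 8.51 for this ratio and 2.68 for that of miR-148b-3p. The difference of the log2 ratio was -0.26 (exact two-sided permutation p 0.750, adjusted 0.750), and its sign turned without oviductal replicate 3, to 0.18, and without uterine replicate 3, to 0.31.

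The arms of the miR-148a hairpin were far from equal. Per 10000 reads of the 3p arm there were 3.12, 3.22, 1.63, 0.145 and 1.78 reads of the 5p arm in oviductal replicates 1 to 5. In uterine replicates 12, 3 and 4 there were 0, 1.57 and 1.18. Oviductal replicate 4 and uterine replicate 12 stood far below the rest. For the count of 0 in the latter, the upper Wilson limit was 0.00347% of the hairpin's reads. The wider counting intervals of the shallow libraries, 0.0137% to 0.0753% in oviductal replicate 2 and 0.00447% to 0.0594% in replicate 3, did not reach down to that limit. Averaged over libraries, the 5p arm held 0.0158% of the hairpin's reads. Among the 71 precursors whose arms had at least 10 reads in every library, 20 had a smaller share in their minor arm, and the median was 0.214%. Some of these 20 had no minor-arm read at all, among them miR-211 and miR-99a, whose 5p arms averaged 436 and 68441 CPM. A share of 0.0158% could go unseen in precursors with few reads, so this count depends on depth.

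The arm ratio was compared between the fluids with limma over those 71 precursors. None passed an adjusted p of 0.05, or 0%, and 5 had an unadjusted p under 0.05, or 7.04%. The log2 ratio of 5p to 3p of miR-148a differed by -1.80 ± 1.31 (SE; uterine minus oviductal), with a limma adjusted p of 0.715. Without uterine replicate 12, the library with no 5p read, it was -0.15 (limma adjusted p 0.977). For miR-148b the difference was -1.46 ± 1.16 (SE; limma adjusted p 0.715), or -0.88 without oviductal replicate 1, which held 13 of the 15 reads of its 5p arm. The 5p arm made up 1.83% of the miR-148b reads in that library, with a Wilson interval of 1.07% to 3.11%, and the next highest share observed was 0.244%, on 1 read in oviductal replicate 4. The upper Wilson limits for the 0 reads of oviductal replicates 2 and 3 were 3.56% and 3.43%, so 1.83% lies within them. Those of oviductal replicate 5 and uterine replicates 12 and 4 were 0.424%, 1.04% and 1.00%, which is below 1.83%. The miR-152 hairpin had fewer than 10 reads in oviductal replicates 2 and 3 and was not tested.

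**Figure D5:**
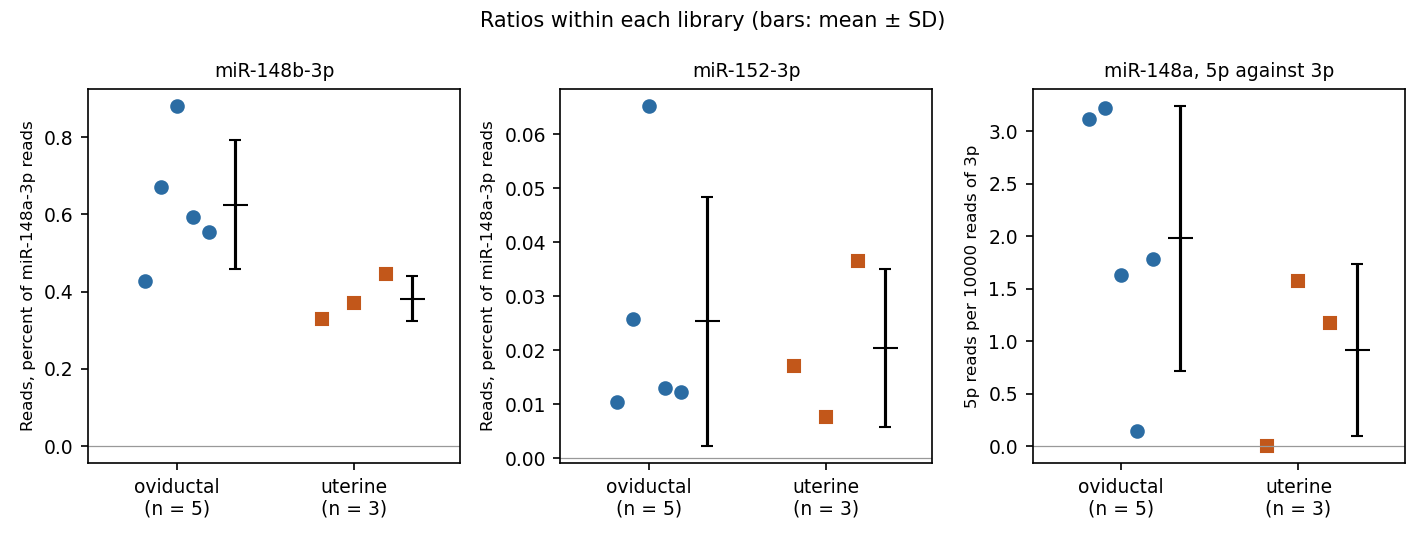
Ratios within each library for the 5 oviductal (blue circles) and 3 uterine (orange squares) libraries, with black bars for mean ± SD: reads of miR-148b-3p and of miR-152-3p as a percent of miR-148a-3p reads, and 5p reads per 10000 reads of 3p for miR-148a. The first panel shows the uterine libraries at 0.329% to 0.445%, near or below the lowest oviductal value of 0.427%, and the other panels overlap widely.

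The miRNAs whose scaled levels followed miR-148a-3p most closely over the 8 libraries were miR-181d-5p (Pearson's r = 0.850), miR-151-3p (0.836), let-7g-5p (0.813), let-7i-5p (0.797) and let-7f-5p (0.762), among 130 candidates with at least 100 CPM. The sixth was miR-148b-3p at 0.761. For miR-148b-3p the closest were let-7g-5p (0.881), let-7f-5p (0.813), miR-184-3p (0.777), miR-148a-3p (0.761) and miR-206-3p (0.743). For miR-152-3p they were miR-25-3p (0.832), miR-378-3p (0.808), miR-186-5p (0.779), miR-450a-5p (0.734) and miR-379-5p (0.713), while its r with miR-148a-3p was 0.04 and with miR-148b-3p 0.18. These r values describe 8 points that share their TMM factors and, among each other, the spread of the same pools. With library totals only, again added after seeing the data, r between miR-148a-3p and miR-148b-3p was 0.072. Of the 5 closest miRNAs, 1 was then shared with the list above for miR-148a-3p, 0 for miR-148b-3p and 3 for miR-152-3p, whose values rest on 4 to 31 reads. Its r with miR-148a-3p and miR-148b-3p was then -0.18 and 0.41.

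Other miRNAs known for targeting DNA methyltransferase mRNAs were read beside the family. Of the 7 names listed, 6 were in the table (miR-126-3p was not) and 5 were tested. The tested ones were miR-29a-3p and miR-29b-3p, which target the de novo enzymes, miR-185-5p, miR-342-3p and miR-143-3p. 1 of the 5 was past the threshold, higher in uterine vesicles, against a background of 1.69%. That was miR-143-3p, abundant in smooth muscle, with a log2 fold change of 2.81 ± 0.48 (SE; edgeR adjusted p 0.00261), and it is also a member of the muscle list. The most abundant miR-29 member, miR-29a-3p, was at 0.09 ± 0.51 (SE; edgeR adjusted p 0.978). The median over the 5 was 1.01, beside -0.02 over all tested miRNAs. This median is the value of miR-185-5p, with an SE of 0.76 (edgeR adjusted p 0.582). miR-29b-3p was at 1.56 ± 1.30 and miR-342-3p at 0.80 ± 1.33 (SE, edgeR adjusted p 0.660 and 0.842).

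Of 14 names known to be abundant beside miR-148a in milk vesicles, 13 were in the table (miR-200a-3p was not), all 13 were tested and none was past the threshold. Their log2 fold changes were positive in 6 and negative in 7, with a median of -0.03. The most abundant were let-7b-5p at 0.14 ± 0.41 and let-7f-5p at 0.29 ± 0.44 (SE; edgeR adjusted p 0.937 and 0.825). Of these names, miR-200c-3p, miR-141-3p and miR-375-3p also belong to the epithelial list, so their reads count in both lists. Together the 13 took 23.1% to 26.0% of oviductal and 14.8% to 17.6% of uterine reads. Among the reads other than miR-148a-3p they took 34.3% to 36.7% in oviductal vesicles. The same shares were 33.5%, 32.5% and 24.9% for uterine replicates 12, 3 and 4. The gap between the groups was thus narrower in replicates 12 and 3, the libraries richest in miR-148a-3p, once that miRNA was set aside.

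Of the marker lists, miR-143-3p of the muscle list was the only member past the threshold in the reported fit. The other muscle miRNA by abundance, miR-1-3p, was at 5.50 (edgeR adjusted p 0.0503). The epithelial miR-200c-3p and miR-375-3p were at -1.13 and -1.31 and the erythrocyte miR-486-5p and miR-451-5p at 0.44 and 2.16. The leukocyte miR-155-5p and miR-150-5p were at 0.03 and 0.94 and the liver miR-122-5p at 2.79, and none of these 7 passed. Of the other tested epithelial names, miR-205-5p was at -2.24 and miR-141-3p at 0.30 (edgeR adjusted p 0.426 and 0.894). Thus 3 of the 4 were negative and 1 was positive. The other tested leukocyte name, miR-146a-5p, was at 2.95 ± 1.01 (SE, edgeR adjusted p 0.134). The other tested muscle names, miR-145-3p and miR-145-5p, were at 1.85 ± 1.14 and 1.30 ± 1.30 (SE, edgeR adjusted p 0.488 and 0.753). Single pools moved these calls. Once uterine replicate 3 was dropped, miR-200c-3p passed at -2.37 and miR-375-3p at -2.0 (edgeR adjusted p 0.00452 and 0.0128). So did miR-451-5p at 2.30 and miR-1-3p at 5.28 (edgeR adjusted p 0.0232 and 0.0287). miR-143-3p did not pass with both shallow oviductal libraries dropped, at 2.74 (edgeR adjusted p 0.171). Without uterine replicate 4, miR-122-5p passed at 3.34 and miR-1-3p at 6.13 (edgeR adjusted p 0.0375 and 0.0121). Without uterine replicate 12, miR-122-5p was at 1.02 (edgeR adjusted p 0.821). miR-1-3p also passed without oviductal replicate 1 or without oviductal replicate 4 (edgeR adjusted p 0.0375 and 0.0408). DESeq2 on all 8 libraries called miR-451-5p, miR-122-5p and miR-1-3p (adjusted p 0.0446, 0.0251 and 0.0378).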

How the data were processed

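Small RNA libraries of 5 oviductal and 3 uterine vesicle pools were analysed from 1 table. The deposited columns hold read counts, whole numbers for each pair of mature miRNA and hairpin, beside RPM values that the authors scaled to 1000000 per column. Recomputing RPM from the deposited counts gave the same values within 0.005, so only the counts were used. Per the submitters' processing notes the build was OryCun2.0 and FastQC was run. The aligner and counter were not given in the sources used here. All 615 rows were reduced to 579 names by taking, for a repeated name, its most read row.

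Differences in counts were fitted in edgeR 4.0.16 by its robust quasi-likelihood test with TMM factors, filterByExpr and Benjamini-Hochberg adjustment, under R 4.3.3. Arm ratios were fitted with limma 3.58.1, with 0.5 added to each count, and ratios between forms and shares were tested by exact two-sided permutation. Alternatives covered scaling, filter, rows, tool (DESeq2 1.42.0, limma-voom), blocks by library number and the removal of libraries. The fits were tested on simulated counts. The forms and lists were chosen with earlier results of these data known. Named were all forms, the second most abundant miRNA of each library, the 5 most alike miRNAs per 3p form, and of each list those past the threshold and the 2 most abundant (log2 TMM CPM, prior count 2, for likeness). miR-148b-3p was also named as the sixth in likeness, after its value was seen. The remaining tested names of the epithelial, leukocyte, muscle and DNA methyltransferase lists were likewise given with values after these were seen.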

Additional observations from a re-analysis of the deposited data

Results flagged for a closer look

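Values were checked for a library far from the other 4 of the oviductal group, in 11 sets of values, and in 5 of them the highest library stood apart. Chance marks about 1 in 20 groups of continuous values. That rate does not hold for sets of nearly all 0 reads, as for miR-148b-5p and miR-152-5p, where a single read is always marked, so the 5 of 11 cannot be read against it. In oviductal replicate 1, miR-148b-5p was at 29.4 CPM on 13 reads, while the other oviductal libraries had 1 read or none, and its 5p arm had 187 reads per 10000 reads of the 3p arm. In oviductal replicate 4, the single read of miR-152-5p stood for 3.93 CPM and for 1111 reads per 10000 reads of the 3p arm, of which that library had 9. In oviductal replicate 3, miR-152-3p came to 0.0652% of the reads of miR-148a-3p, on 8 reads in the shallowest library. The arm and level values of one form use the same reads and are not separate observations. Uterine values were not checked in this way, since the group has 3 libraries.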

How the results depend on the processing

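No call on a tested form changed under scaling, filter, tool or rows, and only the removal of uterine replicate 4 brought miR-148a-3p past the threshold. Over all 19 alternatives its log2 fold change stayed positive, from 0.33 to 1.40, with edgeR, DESeq2 or limma adjusted p from 0.0108 to 0.998. The highest of these came from the replicate block by title number, described below. With single libraries left out the log2 fold change of miR-148a-3p spanned the same range, and the share difference spanned 7.60 to 20.2 points. Under the same removals miR-148a-5p spanned -2.13 to 0.38, miR-148b-3p -0.37 to 0.64, the ratio of miR-152-3p to miR-148a-3p -0.81 to 0.31, miR-29a-3p -0.10 to 0.50, let-7b-5p -0.12 to 0.46, let-7f-5p -0.28 to 0.76 and miR-155-5p -0.21 to 0.37. The number of miRNAs past the threshold, 3 as reported, was 1 to 27 with single libraries left out, 6 with upper-quartile factors, 1 with library totals only, 13 with no filter, 11 by DESeq2, 1 by limma-voom and 7 with rows summed. It was 0 without both shallow libraries (edgeR, 20 at an unadjusted p under 0.05). With library totals only the sign turned for miR-148b-3p (-0.22), miR-29a-3p (-0.16), let-7b-5p (-0.13), let-7f-5p (-0.23) and miR-155-5p (-0.16), and with miR-148a-3p left out of the scaling for miR-29a-3p (-0.0092) and miR-155-5p (-0.036). Without both shallow libraries it turned for miR-29a-3p (-0.20) and the ratio of miR-152-3p to miR-148a-3p (0.49). With library totals only, r of miR-148a-3p with miR-152-3p turned to -0.18. Causes were not tested.

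Libraries of the 2 fluids share the title numbers 3 and 4, but nothing in the labels pairs them, and their deviations from the group means correlated at -0.17 and -0.08. In a fit with such blocks, only libraries whose number occurs in both fluids inform the difference between the fluids. Few libraries then carry each block fit, so its lack of calls and its turned signs cannot be set against the reported fit. With a replicate block by title number edgeR called 0 miRNAs (8 at an unadjusted p under 0.05), and signs turned for miR-148a-5p (2.22), let-7b-5p (-0.53), let-7f-5p (-0.31), miR-486-5p (-0.17), miR-155-5p (-0.13) and the arm ratio of miR-148a (1.07). With a replicate block by library number, where 1 is shared too (correlation -0.15), it called 0 (11 unadjusted), and signs turned for miR-148a-5p (0.39), let-7b-5p (-0.078), let-7f-5p (-0.046) and miR-155-5p (-0.11). In that check miR-148a-3p was at 0.84 and 0.77. Reads limit the rare forms: 3 reads stood for 5.27 to 70.3 CPM, depending on the library.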
